A study of Mus musculus with 6 samples.

Results

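Fibroblast growth factors (FGFs), their receptors, the FGF-binding proteins and the Sprouty and Spred inhibitors were followed in cultured mouse muscle precursors treated with transforming growth factor beta (TGFb). The genes were taken by name: every non-control probe whose gene name on the array was an Fgf number, began with Fgfr or Fgfbp, or was a numbered Spry or Spred gene. This gave 55 of the 55681 non-control probes, for 38 of 36499 genes. A gene was tested if a probe was well above background, by the scanner software's own call, on at least 3 of the 6 arrays, and 28 of the 38 genes met that limit, among 22000 genes tested. Fgfr1op (current symbol Cep43) and Fgfr1op2 came in through their names and are not FGF receptors. They are described apart from the receptors but are counted among the 28 tested genes.

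Both groups were primary myoblasts, the precursors of skeletal muscle fibres, obtained by flow cytometric sorting from the skeletal muscle of male C57BL/6 mice aged 3 months and grown in medium with 20% serum. The treated group had TGFb for 4 days and the control group was untreated. The dose and isoform of TGFb were not given in the sources used here. Each group has 3 arrays, called independent experiments in the labels, but the scanner file names give untreated 1 and untreated 2 the same number, so separate cultures are not certain for these and p-values may measure a partly technical spread.

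FGFs are secreted proteins that bind receptor tyrosine kinases with heparan sulphate as a cofactor. The endocrine FGFs use Klotho proteins instead, and the intracellular FGFs are not secreted and bind sodium channels and other partners inside the cell. Activated receptors signal through the adaptor Frs2 to the RAS-RAF-MEK-ERK cascade. Sprouty and Spred proteins are induced by or act on this cascade and restrain it. In muscle, FGF2 is a classic mitogen of satellite cells that holds back differentiation, Fgf6 is expressed largely in the muscle lineage, and Fgfr4 is a receptor characteristic of myoblasts.

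Levels are given as log2 processed intensity minus the 75th percentile of the same array, in the order of replicates 1, 2 and 3. They depend on each probe and are compared between arrays, not between genes. The arrays were scanned on 2 days: TGFb 1 with untreated 1 and 2 on day 1, and TGFb 2 and 3 with untreated 3 on day 2. Across genes, 2 arrays that shared a day but not a treatment correlated at 0.970 to 0.977, and 2 that shared a treatment but not a day at 0.919 to 0.929. Of the pairs that shared both, untreated 1 and 2 correlated at 0.996, the highest of all pairs, and TGFb 2 and 3 at 0.982. Differences are TGFb minus untreated from limma with scan day as a term, which equal the average of the differences within each day, and are given ± SE with n = 3 per group. A gene passed at a Benjamini-Hochberg adjusted p of at most 0.05 over all 22000 genes, and the adjusted p of the fit with group alone is given beside each FGF family or pathway gene that passed.

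The 75th percentile of intensity was 876 to 1569, and each array had 50.9% to 55.8% of its probes well above background. Known TGFb targets were higher in the treated arrays: Ccn2 by 3.00 ± 0.14, Pmepa1 by 2.34 ± 0.17 and Smad7 by 1.61 ± 0.33, and these 3 passed (adjusted p between 0.00161 and 0.0409). With group alone Ccn2 passed (0.0113) and Pmepa1 (0.105) and Smad7 (0.183) did not, and Smad7 kept its call in 1 of the 6 fits that left out 1 array (without TGFb 3), with adjusted p up to 0.197. Of 9 myoblast markers, 8 passed the background call on all 6 arrays, and Myf5 did so on 1 untreated array. Their summed level, on a linear scale relative to the 75th percentile, was 595 to 1063 in TGFb and 703 to 1078 in untreated arrays. Of the 8 tested, 7 had a negative difference and 6 an unadjusted p under 0.05, with a list median of -0.48: Des fell (-1.28), Ncam1 rose (1.29), and Myod1 (-0.53), Itga7 (-0.66), Myog (-0.51), Cdh15 (-0.45), Pax7 (-0.02) and Chrna1 (-0.04) did not pass. For 7 fibroblast and fibro-adipogenic markers the sums were 2.83 to 5.31 and 2.42 to 3.84, Lum was not well above background on any array, and Dcn (-2.57) and Thy1 (-1.55) fell. None of the tested endothelial, macrophage or Schwann markers passed in limma (0, 0 and 1 had an unadjusted p under 0.05), and Tek, Emcn, Tie1, Cldn5 and Cd68 were not above background on any array. The summed levels in TGFb and untreated arrays were 0.440 to 2.96 and 0.347 to 3.19 for the endothelial list, 16.4 to 118 and 16.3 to 66.8 for the macrophage list, and 0.962 to 1.65 and 1.38 to 2.24 for the Schwann list. The macrophage sum was mostly Itgam, at 3.97, 6.65 and 6.87 in TGFb and 3.95, 3.98 and 6.03 in untreated arrays. Itgam followed the scan day (day 2 minus day 1: 2.43). Ptprc and Tyrobp were above background on 1 TGFb array each and Adgre1 on 1 array of each group, and these were not tested. Of 6 smooth muscle and pericyte markers (sums 80.4 to 446 and 89.7 to 374), Rgs5 rose (1.57), Des fell, and Myh11 was not above background. On the day-2 arrays this sum was mostly Mcam, which followed the scan day (day 2 minus day 1: 3.42) and did not pass (difference 0.17). An unadjusted p under 0.05 was found for 4 of the 6 tested fibroblast and 3 of the 5 tested smooth muscle markers. With group alone no cell type marker passed in limma, and 2 myoblast, 2 fibroblast and 2 smooth muscle markers had an unadjusted p under 0.05. The part of these markers in the FGF results was not tested, and in bulk RNA fewer cells of a type and less RNA per cell cannot be told apart.

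After TGFb, 6 of the 28 tested family genes fell and 2 rose. The genes that fell were the ligands Fgf6, Fgf1, Fgf9 and Fgf21, the intracellular Fgf13 and the receptor Fgfr4, and the genes that rose were the ligands Fgf2 and Fgf18. The 8 genes are 28.6% of those tested, beside 10.1% of all 22000 genes. Without Fgfr1op and Fgfr1op2, 26 genes were tested and the 8 are 30.8% of them. Fgf2 entered the test only through the treated arrays, and among genes above background on at least 1 array of each group 7 of 27 members passed (25.9%), beside 9.58% of all such genes. Of all genes 4.59% rose and 5.53% fell, 1010 against 1216; with arrays scaled to their median instead, the split was 580 against 1269, and among the members 1 rose and 7 fell. With group alone, 2 members passed (7.14%), Fgf6 down and Fgf2 up, beside 1.36% of all genes (0.686% up and 0.677% down). The groups did not overlap for 9 members (32.1%, beside 17.8% of all genes), namely the 8 that passed and Fgfbp3. The median difference was 0.09 over the members and 0.04 over all genes.

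The promoters of 4 of the genes that passed are shown because their genes include the fall with the largest size, the receptor that fell, and both genes that rose. Each is the 250 bases before the RefSeq start (assembly GRCm38.p6), 5′ to 3′ on the gene's strand: Fgf6 at chr6:127015292-127015541, plus strand, Fgfr4 at chr13:55152568-55152817, plus strand, Fgf2 at chr3:37348403-37348652, plus strand, and Fgf18 at chr11:33147401-33147650, minus strand. Capitals mark CANNTG, the E-box bound by myogenic factors, in the genes that fell, and GTCTG or its reverse complement CAGAC, the SMAD-binding element, in those that rose.
Fgf6: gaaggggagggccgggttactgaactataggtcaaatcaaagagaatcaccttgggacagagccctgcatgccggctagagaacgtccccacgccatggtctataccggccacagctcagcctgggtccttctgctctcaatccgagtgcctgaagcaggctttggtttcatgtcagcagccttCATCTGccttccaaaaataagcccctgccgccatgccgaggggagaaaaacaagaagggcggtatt
Fgfr4: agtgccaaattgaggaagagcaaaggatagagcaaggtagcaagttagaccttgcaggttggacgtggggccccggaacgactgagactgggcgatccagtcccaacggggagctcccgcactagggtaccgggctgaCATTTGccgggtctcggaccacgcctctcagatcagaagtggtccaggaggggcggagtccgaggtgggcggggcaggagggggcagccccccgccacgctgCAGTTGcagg
Fgf2: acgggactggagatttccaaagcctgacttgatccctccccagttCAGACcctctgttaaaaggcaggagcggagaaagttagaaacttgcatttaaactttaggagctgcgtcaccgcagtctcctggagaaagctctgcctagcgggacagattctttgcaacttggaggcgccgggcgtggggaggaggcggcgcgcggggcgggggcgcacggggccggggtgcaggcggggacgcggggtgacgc
Fgf18: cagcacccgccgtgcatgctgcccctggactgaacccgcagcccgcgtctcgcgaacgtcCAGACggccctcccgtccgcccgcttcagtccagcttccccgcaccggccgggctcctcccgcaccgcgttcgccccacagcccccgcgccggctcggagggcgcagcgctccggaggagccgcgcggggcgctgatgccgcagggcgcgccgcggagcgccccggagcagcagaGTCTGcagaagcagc
In this window Fgf6 held 1 CANNTG and Fgfr4 held 2, Fgf2 held 1 GTCTG on either strand and Fgf18 held 2. Fgf6 and Fgfr4 had no GTCTG, and Fgf2 and Fgf18 no CANNTG. Of all 32851 promoters of the same length, 66.2% held CANNTG and 42.2% held GTCTG on either strand, so both are common. CAGCTG, a form of CANNTG, stood in 13.0% of promoters and TGANTCA, the AP-1 element, in 6.75%, and none of the 4 held either. Of the 38 members, 29 had a promoter in the table. The split of motifs by direction in the 4 shown did not hold for the other genes that fell. The Fgf21 promoter held 3 SMAD-binding elements and 2 E-boxes, and that of Fgf9 held 1 SMAD-binding element and no E-box. An Fgf13 promoter held 3 SMAD-binding elements and no E-box, another held 2 E-boxes and no SMAD-binding element, and its others held neither. Fgf1 had no promoter to search.

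Secreted ligands made up 6 of the 8 genes that passed: of 11 tested, 2 rose and 4 fell (54.5%, beside 10.1% of all genes). This share includes Fgf2, which entered the test only through the treated arrays. With group alone 1 of the 11 rose and 1 fell, beside 1.36% of all genes called. Fgf6, a ligand of the FGF4 subfamily, gave the largest difference among the members. Its level was -1.23, -0.11 and -0.19 in the TGFb arrays and 2.64, 2.53 and 3.93 in the untreated arrays. Every treated array thus lay below every untreated array, with means ± SD of -0.51 ± 0.62 and 3.03 ± 0.78. Fgf6 fell by 15.4-fold (difference -3.95 ± 0.15, adjusted p = 0.00151; 0.0389 with group alone). The difference was -3.82 within day 1 and -4.08 within day 2, and it passed without any 1 of the 6 arrays (adjusted p 0.00439 to 0.0247). In mm9 coordinates the probe is at chr6:126974677-126974736 on the plus strand; those of the other genes that passed are at chr14:58728897-58728956 (Fgf9), chr7:52869305-52869364 (Fgf21), chrX:56316415-56316474 (Fgf13), chr13:55270033-55270092 (Fgfr4), chr11:33017440-33017499 (Fgf18) and chr18:38998337-38998396 (Fgf1), and the ends of the Fgf2 probe, chr3:37247934-37295153, span an intron. No mm9 annotation was used here, so exons and UTRs were not assigned.

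Fgf1 and Fgf2, the pair that makes up the FGF1 subfamily, both lack a classical signal peptide and moved in opposite directions. Fgf1, which binds all the FGF receptors, was at -1.68, -0.86 and -0.61 in TGFb arrays and 0.74, 0.65 and 1.75 in untreated arrays. It fell 5.38-fold (-2.43 ± 0.15, adjusted p = 0.00201; 0.116 with group alone), and passed in all 6 fits that left out 1 array. Fgf2 was at -4.36, -3.96 and -3.87 in TGFb arrays, where it was well above background on all 3. In untreated arrays it was at -6.32, -6.51 and -6.09 and above background on none. With untreated values raised to the lowest signal well above background on each array, its level in the treated arrays was 2.87-fold higher. That value depends on this floor and on the processing and is not a strict bound. The fitted difference was 2.12 ± 0.14 (adjusted p = 0.00239; 0.0242 with group alone), which sets signal against background, is no bound and was 0.57 with normexp background correction and quantile normalization (adjusted p = 0.0233). A second Fgf2 probe was not above background on any array, and a second Fgf1 probe was so on 1 untreated array only.

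Fgf9, known from male gonad and lung development, was at -1.39, -0.52 and -0.05 in TGFb arrays and 0.25, 0.28 and 1.42 in untreated arrays. The groups did not overlap, and Fgf9 fell 3.21-fold (-1.68 ± 0.18, adjusted p = 0.00698; 0.397 with group alone). The call was lost without TGFb 1 (0.0607) and without untreated 3 (0.0889). Fgf18, of the FGF8 subfamily and known for its role in skeletal growth, was at -3.07, -3.05 and -2.90 in TGFb arrays and -4.23, -3.65 and -4.44 in untreated arrays. The groups did not overlap, the difference was 1.17 ± 0.24, 2.25-fold higher, and it passed narrowly (adjusted p = 0.0434; 0.209 with group alone). Leaving out any 1 of the 6 arrays ended the call (adjusted p 0.0596 to 0.290), and a second, overlapping probe was not above background on any array.

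Fgf21, an endocrine ligand released by stressed muscle and by liver, was at 2.49, 3.12 and 3.12 in TGFb arrays and 3.79, 3.95 and 4.99 in untreated arrays. All treated arrays were lower, and Fgf21 fell 3.08-fold (-1.62 ± 0.17, adjusted p = 0.00706; 0.273 with group alone), but not without untreated 2 (0.0501) or untreated 3 (0.0713). Its co-receptor Klb was well above background on 1 array of each group and Kl on none. Fgf23, the phosphate-regulating endocrine ligand, was at 3.67, 6.48 and 6.74 in TGFb and 3.56, 3.68 and 5.82 in untreated arrays. These values followed the scan day (day 2 minus day 1: 2.57) and Fgf23 did not pass (0.42, adjusted p = 0.289). A second Fgf23 probe was not above background on any array, so the probes disagree on whether the gene was detected.

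The other tested ligands did not pass. Fgf5 was at -3.03, -1.93 and -2.91 in TGFb arrays and -2.39, -2.14 and 0.04 in untreated arrays, a spread carried by untreated 3, with a difference of -1.61 ± 0.47 (adjusted p = 0.100, 95% interval -2.81 to -0.42). It passed when arrays were scaled to their median (0.0359). Fgf7, a mesenchymal ligand that acts on epithelia, was at 0.78, 2.18 and 2.63 in TGFb and 0.69, 0.74 and 2.32 in untreated arrays. Its day-2 arrays were the high ones in both groups, and its difference was 0.08 ± 0.18 (adjusted p = 0.825, interval -0.37 to 0.52). Fgf22 was at -3.97, -2.83 and -3.05 in TGFb and -2.86, -3.16 and -3.15 in untreated arrays (difference -0.38, adjusted p = 0.478). Fgf8 was at -4.88, -4.30 and -3.96 in TGFb and -4.75, -4.80 and -4.48 in untreated arrays (difference 0.12, adjusted p = 0.716), and 2 further Fgf8 probes and a second Fgf22 probe were not above background on any array.

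The intracellular Fgf13, which binds voltage-gated sodium channels and microtubules, was at -1.69, -1.73 and -1.06 in TGFb arrays and -0.20, -0.13 and 0.03 in untreated arrays. It fell 2.78-fold (-1.47 ± 0.22, adjusted p = 0.0182; 0.112 with group alone) with no overlap between groups. The call was lost without TGFb 1 (0.115), untreated 1 (0.0811), untreated 2 (0.0885) or untreated 3 (0.145). Fgf11, of the same subfamily, was well above background on 2 arrays of each group and did not pass (0.47, adjusted p = 0.303). Another 10 members were not tested: Fgf3, Fgf4, Fgf10, Fgf12, Fgf14, Fgf15, Fgf16, Fgf17, Fgf20 and Spry3. Of these, 9 were not well above background on any array with any probe, and Fgf14 was so with one probe on 1 TGFb array and another on 1 untreated array.

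Among the receptors, Fgfr4 fell and the other 4 did not pass (20% passed, beside 10.1% of all genes). Fgfr4 was at 4.06, 4.84 and 4.96 in TGFb arrays and 5.14, 5.06 and 6.02 in untreated arrays. The groups stood apart by a small gap, from 4.96 to 5.06, and within each group the day-2 arrays read higher than the day-1 arrays. Fgfr4 fell 2.12-fold (-1.08 ± 0.14, adjusted p = 0.0108; 0.563 with group alone), with -1.04 within day 1 and -1.12 within day 2. A second Fgfr4 probe read 0.42, -0.73 and -0.82 in TGFb arrays and 1.85, 1.78 and 0.41 in untreated arrays. It was also lower after TGFb (-1.29, adjusted p = 0.0102 among 30200 probes tested singly, of which 8.36% passed), although its day difference ran the other way. The groups overlapped for this second probe, and it did not pass in limma with group alone (adjusted p = 0.302). The Fgfr4 call was lost without TGFb 1 (0.0679), untreated 1 (0.0782), untreated 2 (0.0767) or untreated 3 (0.107), and with slide as a block (0.0790).

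Fgfr1, the main receptor of proliferating myoblasts, was at 4.20, 4.72 and 5.11 in TGFb arrays and 4.03, 3.88 and 4.91 in untreated arrays. The groups overlapped and the difference was 0.12 ± 0.18 (adjusted p = 0.705, 95% interval -0.33 to 0.58), with 0.19 and 0.05 from 2 further probes that did not pass. Fgfr3 was at -0.21, 1.46 and 1.28 in TGFb and 0.54, 0.24 and 1.78 in untreated arrays (difference -0.51, interval -0.92 to -0.09, adjusted p = 0.128), and a second probe gave 0.19, the opposite sign. Fgfr2 was at -3.01, -4.00 and -3.89 in TGFb and -2.31, -2.61 and -4.88 in untreated arrays, with a wide interval (-0.71 to 1.10) around 0.20 (adjusted p = 0.771). Fgfrl1, a receptor-like protein without a kinase domain, was at 4.58, 4.16 and 4.13 in TGFb and 4.42, 4.31 and 3.62 in untreated arrays (difference 0.37, interval -0.01 to 0.75, adjusted p = 0.195). The difference between Fgfr4 and the other receptors was not tested.

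The FGF-binding proteins release FGFs held by matrix heparan sulphate. Fgfbp1 was at -0.88, -2.30 and -2.75 in TGFb arrays and -2.74, -2.40 and -3.27 in untreated arrays, so TGFb 1 was the high array and the groups overlapped. Its difference of 1.21 ± 0.28 missed the threshold (adjusted p = 0.0593, interval 0.50 to 1.93) and passed without TGFb 3 (0.0343) and when every probe had to be above background on all 6 arrays (0.0383). Fgfbp3 was at -1.17, -1.46 and -1.20 in TGFb and -1.94, -1.74 and -1.59 in untreated arrays. These groups did not overlap, but the difference of 0.46 ± 0.18 did not pass (adjusted p = 0.180).

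No Sprouty or Spred gene passed, beside 10.1% of all genes, with 3 of 4 Sprouty and 3 of 3 Spred genes tested. Their median difference was 0.08, beside 0.04 for all genes. Only Spred3 reached an unadjusted p under 0.05 once scan day was in the model, and limma called none of the 6 under any alternative run. Spry1, which is needed for satellite cells to return to quiescence, was at 2.60, 3.49 and 3.24 in TGFb arrays and 2.38, 2.47 and 4.26 in untreated arrays. Its level followed the day more than the treatment, and the difference was -0.36 ± 0.28 (adjusted p = 0.457, interval -1.06 to 0.34), 0.18 within day 1 and -0.90 within day 2. Spry2 was at -0.21, 0.46 and -0.24 in TGFb and 0.05, -0.24 and -0.29 in untreated arrays (difference 0.14, interval -0.53 to 0.80, adjusted p = 0.784). Spry4 was at -4.00, -5.19 and -2.14 in TGFb and -4.27, -3.34 and -3.30 in untreated arrays, so scattered that its interval ran from -2.45 to 1.88 around -0.28 (adjusted p = 0.868). A difference of -1 lies inside the intervals of Spry1 and Spry4 and outside that of Spry2.

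Spred proteins bind RAS regulators, among them neurofibromin, at the membrane. Spred1 was at 0.64, -0.24 and -0.30 in TGFb arrays and 0.04, 0.32 and -0.13 in untreated arrays (difference 0.16, interval -0.35 to 0.66, adjusted p = 0.666). Spred2 was at -0.46, -4.19 and -3.31 in TGFb and -1.18, -0.79 and -3.30 in untreated arrays, lower on every day-2 array of both groups (day 2 minus day 1: -2.80). Its difference was 0.03 with scan day in the model (adjusted p = 0.965, interval -0.86 to 0.93) and -0.90 with group alone. Spred3 was at -3.96, -4.18 and -4.69 in TGFb and -4.24, -4.41 and -5.95 in untreated arrays, above background on 3 TGFb and 2 untreated arrays (difference 0.94 ± 0.32, interval 0.14 to 1.74, adjusted p = 0.137). The genes named after FGFR1, Cep43 at 2.24, 3.44 and 2.97 against 2.28, 2.14 and 3.52 and Fgfr1op2 at 3.19, 3.95 and 3.93 against 2.70, 2.75 and 4.21, did not pass (differences -0.15 and 0.10, adjusted p = 0.687 and 0.803).

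Across the 28 tested genes, 19 (67.9%) had the same sign within both days, beside 67.7% of all genes. The 8 genes that passed all had the same sign on both days, which is no separate support, as the same within-day differences made the call. Fgf13, for example, differed by -1.53 and -1.42, Fgf9 by -1.66 and -1.71, and Fgf18 by 0.87 and 1.46. Fgf2 differed by 2.06 and 2.18. The 2 days gave less equal values for Fgf5 (-0.77 and -2.46) and Fgfbp1 (1.68 and 0.74). In Fgf7, Fgfr1 and Spred2 the arrays of both groups separated by day.

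Other genes of the pathway were taken from 4 lists of 59 genes, of which 56 were tested, 7 rose and 2 fell (16.1%, beside 10.1% of all genes). With group alone none passed in limma, with 11 at an unadjusted p under 0.05. Of 13 adaptors and co-receptors, only Flrt3, a membrane protein that binds FGF receptors, passed (7.69%, beside 10.1% of all genes). Flrt3 was at -2.04, -1.51 and -1.30 in TGFb arrays and -4.09, -4.03 and -2.94 in untreated arrays. It rose by 1.78 ± 0.18 (adjusted p = 0.00568; 0.0988 with group alone), and passed in all 6 fits that left out 1 array. The adaptor Frs2 was at 2.68, 3.88 and 3.88 in TGFb and 2.14, 2.13 and 3.22 in untreated arrays and missed the threshold (difference 0.60 ± 0.13, adjusted p = 0.0515).

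Of 12 genes of the RAS-ERK core, Map2k2, which encodes the kinase MEK2, fell from 4.31, 4.24 and 3.76 to 3.23, 2.70 and 2.93 (-0.99 ± 0.15, adjusted p = 0.0171; 0.185 with group alone). Hras, one of the RAS GTPases, fell by a smaller amount (-0.85 ± 0.19, adjusted p = 0.04997; 0.418 with group alone). Leaving out 1 array gave an adjusted p up to 0.122 for Map2k2 and 0.206 for Hras, with the calls kept in 2 and 1 of 6 such fits. The genes that passed were 16.7% of this list, beside 10.1% of all genes. The median of this list was -0.11, beside 0.04 for all genes.

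Of 14 feedback genes and transcriptional targets of FGF-ERK signalling, 3 rose and none fell (21.4% passed, beside 10.1% of all genes). Il17rd, also called Sef and an inhibitor of FGF signalling at the membrane, was at 1.09, 1.34 and 1.15 in TGFb arrays and -0.85, -0.74 and -0.11 in untreated arrays and rose (1.62 ± 0.18, adjusted p = 0.00802; 0.0613 with group alone). Etv4, a PEA3 transcription factor, was at 3.21, 3.35 and 3.19 in TGFb and 2.22, 2.24 and 2.23 in untreated arrays, with little spread in either group, and rose (1.01 ± 0.14, adjusted p = 0.0137; 0.135 with group alone). Its relative Etv5 was lower in every TGFb array, at 3.94, 4.02 and 4.21 against 4.37, 4.39 and 4.88, without passing (-0.60 ± 0.16, adjusted p = 0.0766). Dusp6, an ERK phosphatase and a common readout of FGF activity, was at 3.02, 2.91 and 2.57 in TGFb and 3.15, 3.24 and 3.70 in untreated arrays and did not pass (-0.57 ± 0.23, adjusted p = 0.197, interval -1.15 to 0.02). Ier3, an early response gene, rose (1.74 ± 0.28, adjusted p = 0.0210; 0.384 with group alone).

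Of 17 tested heparan sulphate genes, 3 rose and none fell (17.6% passed, beside 10.1% of all genes). Their median was 0.23, beside 0.04 for all genes. Sulf1, a sulphatase that edits heparan sulphate, rose by 0.86 ± 0.14 (adjusted p = 0.0238; 0.375 with group alone), Ext1, a polymerase of the chain, by 0.83 ± 0.15 (adjusted p = 0.0280; 0.351 with group alone), and Sdc1, a carrier protein, by 0.87 ± 0.18 (adjusted p = 0.0446; 0.504 with group alone). Each kept its call in 2 of the 6 fits that left out 1 array, with adjusted p up to 0.137, 0.196 and 0.254. Il17rd kept its call in 4 of the 6 such fits (up to 0.0585), and Etv4 (0.120) and Ier3 (0.185) in 2 each.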

How the data were processed

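The authors deposited 1 scanner file per array with the intensity of each spot, made by Feature Extraction 10.7.3.1 (background and spatial trend removed), per the file headers. They also deposited a table of log2 values, with column medians of 6.99 to 7.00, which track the scanner signal. Their normalization and centring stay unknown, and they served as an alternative.

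Control and outlier spots (176 to 365 per array) were left out, log2 processed intensity minus the array's 75th percentile was taken, and spots of a probe were averaged. A gene was its probe with the highest mean among those well above background on at least 3 arrays. Names were updated through RefSeq (GRCm38.p6) for 26300 probes with a matched accession, changing 2839. The comparison used lmFit and eBayes of limma 3.58.1 (R 4.3.3), with scan day, from the file headers, as a term, because the groups are spread unevenly over the days. No pairing is stated, and the number of arrays limits the precision. All members are named, those well above background on all 6 arrays with every value; from each list, up to 5 genes with the smallest adjusted p that passed, plus Frs2, Dusp6, Etv4, Etv5, Klb and Il17rd. Members, lists, the scan-day term and these rules were chosen with earlier results of these data known. Fits were tested on simulated data (21837 genes) that kept the day differences and spread of the scan-day fit. With scan day as a term 14%, 64%, 94% and 98% of changes of 1, 1.5, 2 and 3 log2 units were recovered. This fit made 8 false calls. With group alone 0% were recovered, with 0 false calls. Because the simulation was built on the scan-day fit, it cannot decide between the 2 fits. It also drew the noise of each array independently, which is not certain for untreated 1 and 2. Recovery and false calls in the real data may therefore differ from these values. A treatment-check gene and a cell type marker are not reported here by name.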

Additional observations from a re-analysis of the deposited data

How the results depend on the processing

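The fall of Fgf6 passed under every alternative run except the replicate blocks. Fgf2, at background in the untreated arrays, had fitted differences from 0.57 to 2.25. Main counts were 2 family genes that rose and 6 that fell, 1010 and 1216 of all genes, and 7 and 2 of the pathway lists. With group alone these were 1 and 1, 151 and 149, and 0 and 0. With slide as a block 1 family gene rose, 367 and 416 of all genes and 3 and 0 of the lists passed. Arrays with the same replicate number in their titles deviated together in replicates 1 and 3 (r of 0.80 and 0.69), which shared a scan day. Those of replicate 2, which did not share a day, did not (-0.71). These values followed the scan day, so they cannot rule pairing in or out. The replicate blocks also used the title numbers. The scanner file names instead number untreated 1 and 2 like TGFb 2, and no untreated array like TGFb 1. Pairs by the file numbers were not tested. The main fit has no replicate block because no pairing is stated. With the replicate block and scan day the counts were 0 and 0 throughout, and limma gave 3620 genes an unadjusted p below 0.05. With the replicate block without scan day the counts were 0 and 0, 2 and 0, and 0 and 0, with 2951 such genes. Scaling to the array median gave 1 family gene that rose, 580 rises among all genes (median of all genes -0.15, against 0.04; 1269 falls) and 4 list genes that rose. Without a filter on dim probes 1 family gene rose, 615 and 687 of all genes and 4 and 1 of the lists passed. Normexp with quantile normalization called 13 list genes that rose, quantile normalization 11, and the authors' deposited values gave 13, with 1561 and 1854 of all genes. Testing every probe by itself left 1 list gene that fell. Averaging untreated 1 and 2 into 1 sample, chosen after seeing the data, gave 1 family gene that rose (5 passed in all, without Fgf13, Fgf18 and Fgfr4), 319 and 349 of all genes and 2 and 0 of the lists. Leaving out 1 array gave 1 to 2 family genes that rose and 2 to 6 that fell, 145 to 1520 and 182 to 1786 of all genes, and 1 to 12 and 0 to 2 of the lists, lowest for all genes without untreated 3 and highest without TGFb 3. The cause of these shifts was not tested. No gene that passed changed sign; under array-median scaling 7 uncalled differences became negative: Fgf7 -0.11, Fgf8 -0.07, Fgfr1 -0.07, Fgfr1op2 -0.09, Spry2 -0.05, Spred1 -0.03 and Spred2 -0.16. Dim probes, Fgf2 and Fgf18 among them, have the least certain differences.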
